A study of Mus musculus with 3 samples.

Results

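The transcriptome described here is that of the control library of ST2 cells, a stromal line from mouse bone marrow that can be turned toward bone or fat cells. It is 1 of the 3 libraries of the series and was chosen by its label, without use of any measured value. The cells had been given empty vector and control siRNA at 30 nM with a lipid transfection reagent, so the baseline is that of transfected cells and not of untouched cultures. The other 2 libraries, from cells with a NELL2 construct or siRNA against Fn1, are not used below. Per the labels the cells grew in DMEM with 10% serum, whereas the study's methods name another medium for this line. As the group is 1 library of 1 cell line, no value has a replicate check, and no test was made.

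Stromal cells of the marrow make the fibrous matrix of the tissue, carry the receptors through which bone, fat and cartilage fates are set, and secrete factors that blood cells need. Fibronectin is laid down early among the matrix proteins and serves as a scaffold for collagen. A cell line keeps some of these programmes and loses others in culture, and absolute levels show which of them are present before any manipulation is compared with it.

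Levels are given in FPKM, fragments scaled to transcript length and to the size of the library, so that levels of different genes can be set side by side per length. Of 51826 rows, 51639 carried a name found on no other row, and 22137 of these were above 0. A level of 1 FPKM was reached by 12280 of the uniquely named genes, and 598 of them reached 100 FPKM. Among 21412 genes annotated as protein-coding, 11013, or 51.4%, reached 1 FPKM, and the counts of list members given below are to be read against this share. Low values placed the library at about 23000000 fragments, at which 1 FPKM on a transcript of 2 kb stands for about 45.9 fragments. A gene listed at 0 was therefore not detected at this depth, which is less than saying that it is absent. Members of the lists beyond the highest, the first-placed and those next to 1 FPKM were named after their values had been seen.

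The 4 markers of the line were all among its highest genes. Fn1, the fibronectin gene (ENSMUSG00000026193.15), spans 71585520 to 71653200 on the minus strand of chromosome 1 in GRCm38, and its level was 2802 FPKM. It stood at place 6 of all uniquely named genes and at place 2 of the nuclear protein-coding genes, behind the translation elongation factor Eef1a1 at 2933 FPKM. Col1a1 and Col1a2, whose products form the triple helix of type I collagen, were at 1494 and 897 FPKM, places 10 and 22 among nuclear protein-coding genes. The ratio of their transcript levels was 1.67. The type I helix holds more α1 than α2 chains, but that is a count of protein chains, which was not measured here. Acta2, the smooth muscle form of actin, was at 1027 FPKM at place 18, which is 1.19 times the level of the cytoplasmic actin Actb at 861 FPKM. Each marker of the line was thus detected at a high level.

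**Figure D1:**
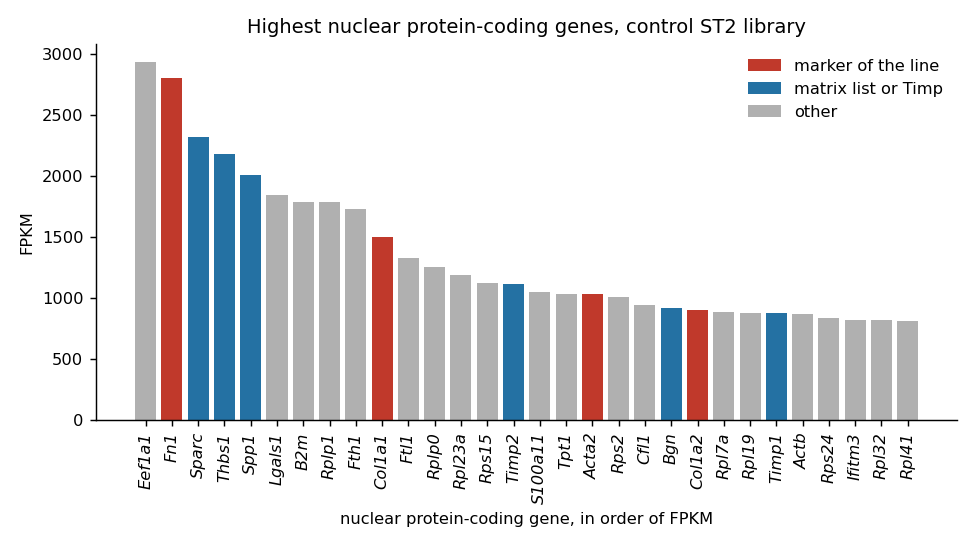
Level in FPKM of the 30 highest nuclear protein-coding genes in the control library, 1 bar per gene in order of level, with the 4 markers in red and other matrix genes or inhibitors of matrix proteases in blue. Fn1 at 2802 FPKM stands second, and Sparc, Thbs1 and Spp1 follow it directly.

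Matrix genes held the next places as well. Sparc, a collagen-binding glycoprotein of bone and remodelling tissue, was at 2317 FPKM. Thbs1, the adhesive glycoprotein thrombospondin 1, was at 2177 FPKM, and Spp1, the phosphoprotein osteopontin, was at 2008 FPKM. These genes and Fn1 occupied places 2 to 5 of the nuclear protein-coding genes, ahead of the galectin Lgals1 (1844 FPKM), the class I light chain B2m (1788 FPKM) and the ferritin chains Fth1 (1728 FPKM) and Ftl1 (1324 FPKM). The remaining places in the top 30 of all names went to genes of the ribosome (Rplp1 at 1783, Rplp0 at 1248, Rpl23a at 1188 and Rps15 at 1118 FPKM), to Timp2, an inhibitor of matrix metalloproteinases (1113 FPKM), to Col1a1, to mitochondrial rows and their nuclear copies, and to miRNA rows.

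Of those 30 names, 9 were mitochondrially encoded, led by mt-Co1, a subunit of cytochrome oxidase, at 7003 FPKM and followed by mt-Co2 (2931), mt-Cytb (2806), mt-Atp8 (2723), mt-Nd1 (2246), mt-Co3 (2068), mt-Nd5 (1481), mt-Nd4 (1288) and mt-Nd2 (1077 FPKM). Another 4 were among 7 pseudogenes on chromosome 1 (24611535 to 24616197, minus strand), a nuclear copy of mitochondrial sequence. Gm28661 was at 2928 FPKM, 99.9% of the level of mt-Co2, and Gm10925, Gm29216 and Gm28437 were at 2530.4, 2394 and 2074 FPKM. As their sequence is nearly that of the mitochondrial genes, reads can be placed on either, and the levels of both sets are uncertain. The last 2, Gm27597 (1752 FPKM) and Gm26377 (1187 FPKM), are annotated as miRNA genes inside exons of Rpl19 and Eef1a1, and fragments of the host transcripts can be counted on them.

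By class, the 37 mitochondrially encoded genes held 7.02% of the summed FPKM and the 86 ribosomal protein genes 10.1%. All but 2 of the latter reached 1 FPKM; Rpl3l and Rpl10l, copies with tissue-restricted expression, were listed at 0. The 44 collagen genes held 1.15% and 52 matrix glycoprotein and proteoglycan genes 3.18%, together 4.32%. The 10 highest names held 7.87% of the sum, and 489 names held 50% of it.

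Promoter sequence from RefSeq (GRCm38.p6) is shown for 4 mesenchymal genes of high level and 1 ribosomal protein gene, so that their CpG content and promoter elements can be compared. The promoter windows covered 250 bases before to 50 bases after each RefSeq start, and 13596 nuclear protein-coding genes had exactly 1 such window. Each line below gives the 125 bases that end just before the start, 5′ to 3′ on the strand of the gene. Acta2 lies on chromosome 19 (34255374 to 34255498, minus strand), Vim on chromosome 2 (13574186 to 13574310, plus strand), Sparc on chromosome 11 (55420081 to 55420205, minus strand), Col1a2 on chromosome 6 (4505493 to 4505617, plus strand) and Rps3 on chromosome 7 (99483710 to 99483834, minus strand). Capitals mark TATAAA on the strand of the gene, looked for from 50 to 15 bases before the start, and CArG boxes, the element bound by serum response factor, with at most 1 C or G among the 6 inner bases.
Acta2: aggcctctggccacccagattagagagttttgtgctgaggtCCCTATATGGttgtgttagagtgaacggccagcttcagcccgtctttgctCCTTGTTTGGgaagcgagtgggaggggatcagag
Vim: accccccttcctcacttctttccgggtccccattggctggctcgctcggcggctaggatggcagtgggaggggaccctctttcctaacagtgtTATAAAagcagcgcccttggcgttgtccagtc
Sparc: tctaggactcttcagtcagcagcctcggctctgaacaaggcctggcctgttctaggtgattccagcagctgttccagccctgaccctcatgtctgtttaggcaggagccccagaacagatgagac
Col1a2: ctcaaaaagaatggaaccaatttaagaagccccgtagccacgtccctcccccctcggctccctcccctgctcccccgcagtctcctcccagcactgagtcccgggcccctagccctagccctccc
Rps3: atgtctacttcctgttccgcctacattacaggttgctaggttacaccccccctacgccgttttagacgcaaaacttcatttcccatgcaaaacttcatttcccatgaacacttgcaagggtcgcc

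Acta2 held CArG boxes that begin 84 and 34 bases before its start, each with 1 inner C or G, and no box of the strict form with 6 inner A or T. The strict form was found on either strand in 1.63% of all 32851 RefSeq promoter windows and the relaxed form, which was searched after the strict one had been read, in 9.98%. Of 8 genes of the smooth muscle list with 1 window, Acta2 and Myl9 held the relaxed form and Myl9 also the strict one. Vim, the intermediate filament of mesenchymal cells at 799 FPKM, held TATAAA 32 bases before its start, where 2.43% of all windows hold it. Sparc had neither in its window, and Col1a2 held the relaxed CArG form in its window but outside the stretch shown. Of the 14 collagen and matrix genes at 100 FPKM or more with 1 window, 3 (Col1a2, Fbln2 and Col6a3) held the relaxed form, or 21.4%, against 25% of the smooth muscle genes.

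CpG content differed between the classes. The ratio of observed to expected CpG was 0.174 in the window of Sparc, 0.270 in that of Acta2, 0.421 in that of Vim and 0.470 in that of Col1a2, against 0.963 in that of Rps3, a ribosomal protein gene at 264 FPKM. Across genes the median ratio was 0.168 for 4277 genes listed at 0, 0.432 for 2424 genes above 0 and below 1 FPKM, 0.772 from 1 to 10 FPKM, 0.818 from 10 to 100 FPKM and 0.807 for 356 genes at 100 FPKM or more. Among the last, the 50 ribosomal protein genes had a median of 0.927 and the 14 collagen and matrix genes a median of 0.274, which lies between the medians of the genes listed at 0 and of those below 1 FPKM. The latter are 14 of 25 collagen and matrix genes at that level and the former 50 of 78 ribosomal ones, since genes with no window or several were not counted. Fn1, Thbs1 and Col1a1, with no window, and Spp1, with several, are among the 11 matrix genes not counted. Within the 14 matrix genes the ratio ran from 0 in Col3a1 to 0.902 in Col4a1, with Col4a1, Col4a2 (0.818), Igfbp7 (0.832) and Col5a1 (0.809) as the CpG-rich members. TATAAA was found in 7.34% of promoters of genes listed at 0, in 1.11% from 1 to 10 FPKM, in 0.858% from 10 to 100 FPKM and in 4.49% at 100 FPKM or more. These shares describe letters in a window and not use of the element.

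**Figure D2:**
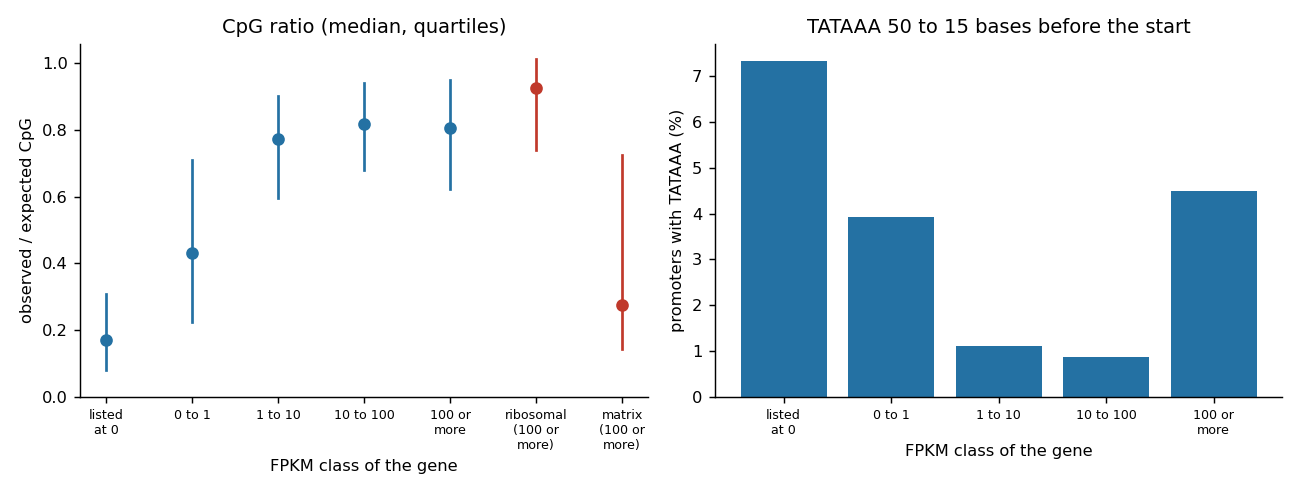
Left, ratio of observed to expected CpG in promoter windows (points, medians; lines, the quartiles on either side) by FPKM class in the control library, with the ribosomal and the collagen and matrix genes at 100 FPKM or more in red; right, percent of promoters with TATAAA by FPKM class. The matrix genes sit at a median of 0.274 and the ribosomal genes at 0.927, and TATAAA is least common from 10 to 100 FPKM.

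Lineage lists were read next, all chosen with earlier results of these data known. The stromal and fibroblast list opens with the 4 markers of the line, so its count cannot place the line among cell types. All 18 genes of the stromal and fibroblast list reached 1 FPKM, with a median of 100.5 FPKM. Beside the markers they included Vim, the calcium-binding protein S100a4 (716 FPKM), the hyaluronan receptor Cd44 (339.9 FPKM), the surface glycoprotein Thy1 (138 FPKM) and the stem cell antigen Ly6a (107 FPKM). The platelet-derived growth factor receptors differed, with Pdgfrb at 63.4 and Pdgfra at 8.95 FPKM, and the ectonucleotidase Nt5e was lowest in the list at 2.17 FPKM.

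Of 13 smooth muscle genes, Acta2 again among them, 10 reached 1 FPKM. Tagln (transgelin) was at 488, Tpm1 and Tpm2 (tropomyosins) at 438 and 199.8, Cald1 (caldesmon) at 255, Myl9 (myosin light chain) at 217, Smtn (smoothelin) at 35.8, Cnn1 (calponin) at 32.2 and Lmod1 (leiomodin) at 10.3 FPKM. The 3 below that level were Myh11, the smooth muscle myosin heavy chain (0.889 FPKM), the intermediate filament Des (0.472 FPKM) and Myocd, the coactivator of serum response factor (0.0606 FPKM). Of 12 skeletal muscle genes only the actin Acta1 reached 1 FPKM (4.14); the satellite cell factors Pax3 and Pax7 were at 0.148 and 0.00744 FPKM, and the myogenic factor Myf5 was listed at 0.

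Genes of the marrow niche, which support blood stem cells, were present at a lower level. Of 21 genes, 18 reached 1 FPKM and 11 reached 5 FPKM, with a median of 5.62 FPKM. Cxcl12, the chemokine that holds stem cells in marrow, was at 7.40, Kitl (stem cell factor) at 1.92 and the leptin receptor Lepr at 7.71 FPKM. Higher were the macrophage growth factor Csf1 (161 FPKM), the BMP antagonist Grem1 (115 FPKM), the adhesion molecules Vcam1 (48.7 FPKM) and Alcam (39.7 FPKM) and the intermediate filament Nes (27.5 FPKM). Below 1 FPKM were the neurotrophin receptor Ngfr (0.791), the stromal antigen Bst1 (0.295) and thrombopoietin, Thpo (0.0505).

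Of 21 osteoblast genes, 11 reached 1 FPKM, or 52.4%, close to the share of all protein-coding genes, and 6 reached 5 FPKM. Runx2, the transcription factor that opens the osteoblast programme, was at 10.8 FPKM, and Sp7 (osterix), which acts after it, at 4.13 FPKM. Msx2 (83.6) and Msx1 (15.2), homeodomain factors, Atf4 (109.8), a stress and amino acid response factor, and the parathyroid hormone receptor Pth1r (11.2 FPKM) were higher than Sp7. The distal-less factors Dlx5, Dlx6 and Dlx3 were at 4.38, 1.12 and 0.506 FPKM, the last below the level. The phosphatase Alpl, an early marker of mineralizing cells, was at 2.39 FPKM. Ibsp (bone sialoprotein) was at 0.161 and Bglap2, an osteocalcin gene, at 0.152 FPKM, and its near-identical neighbour Bglap, Sost (sclerostin), Fgf23 and Mepe, products of mature osteoblasts or osteocytes, were listed at 0. Spp1, a bone matrix product that many other cells also make, was the highest of the list at 2008 FPKM.

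Of 20 adipocyte genes, 11 reached 1 FPKM, or 55%, close to the share of all protein-coding genes, with a list median of 1.23 FPKM, and 3 reached 5 FPKM. Pparg, the receptor that drives fat cell formation, was at 2.01, and the C/EBP factors Cebpb, Cebpd and Cebpa at 28.5, 6.89 and 1.63 FPKM. The fatty acid carrier Fabp4 was at 1.30, the lipases Pnpla2, Lpl and Lipe at 10.6, 1.95 and 1.86 FPKM. The regulators Zfp423, Zfp467, Klf15 and Ebf2 were at 1.34, 1.31, 1.16 and 0.397 FPKM. Adipoq (adiponectin) was at 0.0983 and Plin1 (perilipin) at 0.0826 FPKM, and Lep, Retn, Cidec and Cfd were listed at 0. Regulators and products of the fat cell thus overlapped in level.

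Genes of cartilage were detected as well. Of 15 chondrocyte genes, 11 reached 1 FPKM, or 73.3%, and 7 reached 5 FPKM. Col2a1, the collagen of cartilage, was at 299.6 FPKM, 20.1% of the level of Col1a1. The chondrocyte factors Sox9, Sox6 and Sox5 were at 13.4, 5.62 and 2.91 FPKM, and the cartilage matrix genes Comp, Acan, Col9a1 and Hapln1 at 12.4, 6.75, 5.75 and 5.64 FPKM. Col10a1, the collagen of hypertrophic cartilage, stood just above the level at 1.02 FPKM, while Matn1, Ihh and Snorc were listed at 0.

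**Figure D3:**
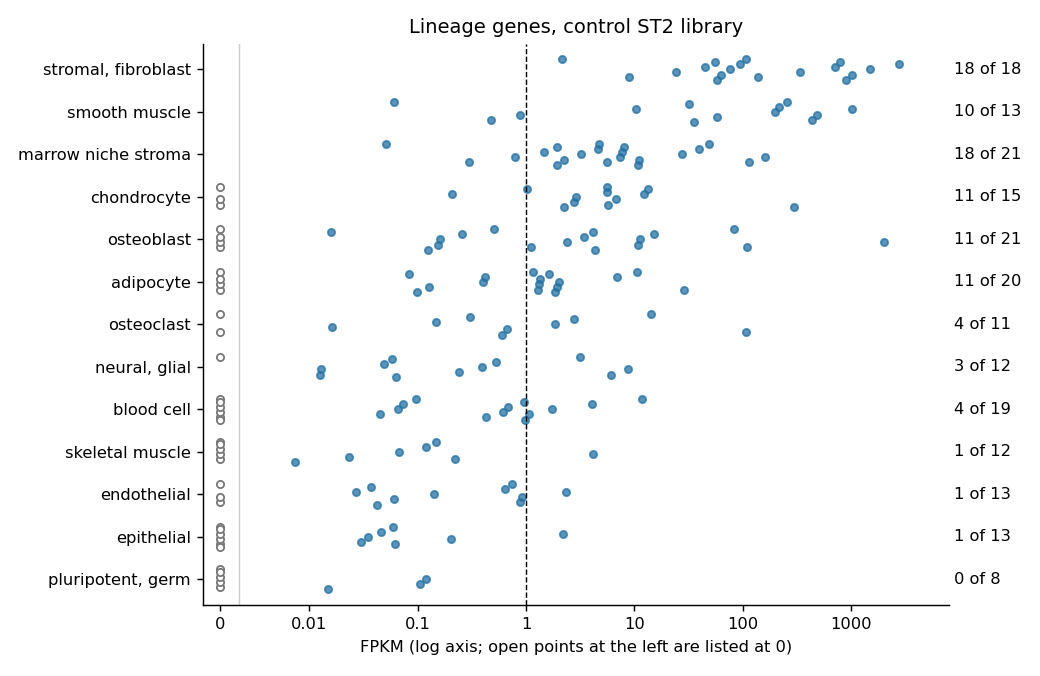
FPKM of each gene of 13 lineage lists in the control library on a log axis, 1 point per gene, with the number at 1 FPKM or more (dashed line) at the right and genes listed at 0 as open points. All 18 stromal genes, the 4 markers among them, lie right of the dashed line. So do 1 of 13 endothelial, 1 of 13 epithelial and none of 8 pluripotent or germ cell genes.

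Lists for blood, endothelial, epithelial, osteoclast, neural and germ cells had a smaller share of members at 1 FPKM than protein-coding genes as a whole, and some blood cell and osteoclast genes were well above that level. Of 19 blood cell genes with a value, 4 reached 1 FPKM, namely Lyz2 (lysozyme, 11.8), Cd68 (4.08), the endotoxin co-receptor Cd14 (1.74) and the Csf1 receptor Csf1r (1.06 FPKM). The first 3 members of the list with a value were lower. The pan-leukocyte phosphatase Ptprc was at 0.0452, the myeloid factor Spi1 at 0.0972 and the macrophage receptor Adgre1 at 0.426 FPKM. Cd3e, Hbb-bs, Hba-a1 and Gata1 were listed at 0. Endothelial Pecam1 was at 0.0605, Cdh5 at 0.738 and Kdr at 0.914 FPKM, and the epithelial cadherin Cdh1 at 0.0586 FPKM with Epcam listed at 0. Of the endothelial and epithelial lists only Egfl7 (2.32 FPKM) and the keratin Krt19 (2.19 FPKM) passed 1 FPKM. Egfl7 overlaps Gm20532 and Mir126a on the same strand, so fragments can be shared with them. Of 11 osteoclast genes, 4 did, led by the collagen-degrading protease Ctsk at 107 and the transcription factor Nfatc1 at 14.4 FPKM, with Acp5 at 1.84 FPKM and the calcitonin receptor Calcr and the fusion protein Dcstamp listed at 0. Among 12 neural and glial genes, S100b (8.69), the tubulin Tubb3 (6.06) and the myelin protein Mbp (3.17 FPKM) reached the level and Sox10 (0.240 FPKM) did not. None of 8 pluripotency or germ cell genes reached it, with Pou5f1 and Nanog listed at 0 and Sox2 at 0.106 FPKM.

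The matrix itself was read from its structural genes. Of 44 collagen genes, 26 reached 1 FPKM and 12 reached 100 FPKM, and Col1a1 with Col1a2 made up 52.3% of the summed collagen FPKM. Next was Col5a2 at 306 FPKM, a chain of type V collagen, which sets the diameter of type I fibrils. Col2a1 at 299.6 FPKM lay between Col5a2 and Col5a1 (249.9 FPKM). Another type V chain, Col5a3, was at 4.85 FPKM. The microfibrillar type VI chains Col6a1, Col6a2 and Col6a3 were at 226, 142 and 108 FPKM, and Col3a1, the partner of type I in soft tissue, at 173 FPKM. Basement membrane Col4a1 and Col4a2 were nearly level with each other at 140.3 and 137 FPKM, whereas Col4a3 (0.0509) and Col4a4 (0.0253 FPKM) were below 1 FPKM and Col4a5, which joins them in specialised basement membranes, was at 19.5 FPKM. None of the 44 collagen genes was listed at 0.

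Of 32 matrix glycoproteins, 29 reached 1 FPKM. After Fn1, Sparc, Thbs1 and Spp1 the next were Thbs2 (289 FPKM), Tnc (tenascin C, 278 FPKM) and Fbln2 (fibulin 2, 248 FPKM). Igfbp7 was at 179, Ecm1 at 129, the latent TGF-β binding protein Ltbp1 at 118 and Postn (periostin) at 100.5 FPKM. Elastic fibre genes were uneven, with the microfibril protein Fbn1 at 76.6 and Fbln5 at 72.4 FPKM but elastin itself, Eln, at 2.58 FPKM. Vitronectin, Vtn, a serum protein made in liver, was at 0.0250 FPKM. Of the small leucine-rich proteoglycans Bgn (biglycan) stood at 912, Fmod (fibromodulin) at 219.5, Lum (lumican) at 76.6 and Dcn (decorin) at 57.8 FPKM, and 10 of 12 reached the level. Laminins were read by chain, with Lamb1 at 60, Lamc1 at 41.6 and the mesenchymal α chain Lama4 at 32.5 FPKM, whereas Lama1 and Lama3 of epithelia were at 0.496 and 0.0383 FPKM.

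Of 24 genes that process and crosslink collagen, 23 reached 1 FPKM, with a median of 47.7 FPKM. The lysyl oxidases Lox, Loxl2, Loxl3 and Loxl1 were at 775, 308, 103 and 88.2 FPKM, the collagen chaperone Serpinh1 at 322, and Pcolce, which helps to remove the C-propeptide, at 220.2 FPKM. Only the procollagen protease Adamts3, at 0.317 FPKM, was below the level. Of 22 matrix metalloproteinases, 10 reached 1 FPKM (45.5%, near the share of all protein-coding genes), led by the gelatinase Mmp2 (305), its membrane-bound activator Mmp14 (172), Mmp23 (25.2) and the collagenase Mmp13 (21.8 FPKM). The inhibitors Timp2 (1113), Timp1 (875) and Timp3 (333) summed with Timp4 (0.0113) to 2322 FPKM, against 563 FPKM for the 22 metalloproteinases. All 14 genes of a list of serpins and proteases reached 1 FPKM, with Serpinf1 (pigment epithelium-derived factor) at 635 and the lysosomal protease Ctsd at 583 FPKM.

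Among the receptors for this matrix, Itgb1 was the highest integrin subunit and Itga5 the highest α subunit. Itgb1, the common β subunit, was at 497 and Itga5, which pairs with it to bind fibronectin, at 117 FPKM. Itgb1 was 4.24 times as high as Itga5, and α subunits of all 17 genes with a value summed to 207 FPKM. The collagen receptor subunit Itga11 was at 29.7, the laminin-binding Itga3 at 20.5 FPKM, the αv subunit Itgav at 21.3 FPKM and Itgb5, a partner of αv, at 109 FPKM. The leukocyte β subunit Itgb2 was at 0.492 FPKM, and the platelet subunit Itga2b stood just under the level at 0.993 FPKM. The hyaluronan receptor Cd44, at 339.9 FPKM, lay between Itgb1 and Itga5. The syndecans Sdc2, Sdc4, Sdc3 and Sdc1, proteoglycan co-receptors, were at 124, 113, 83.5 and 43.6 FPKM, and the mesenchymal cadherins Cdh11 and Cdh2 at 96.4 and 58 FPKM.

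Of 54 receptor tyrosine kinases, 28 reached 1 FPKM (51.9%, near the share of all protein-coding genes). The highest was Axl, a receptor for Gas6, at 163 FPKM, followed by the Wnt-pathway pseudokinases Ptk7 (81.5) and Ryk (68), the fibroblast growth factor receptor Fgfr1 (78.9) and the collagen receptor Ddr2 (68.5 FPKM). Fgfr2 was at 23.4, Igf1r at 15.3 and Egfr at 4.62 FPKM, and 8 of the receptors were listed at 0, among them Ros1 and Flt3. Of the TGF-β and BMP receptors 11 of 14 reached the level, with the type II receptor Tgfbr2 at 65.7 and its type I partner Tgfbr1 at 3.36 FPKM. The BMP type I receptors Bmpr1a and Acvr1 were at 24.2 and 19.1 and the type II receptor Bmpr2 at 9.0 FPKM. Of the Wnt receptors 11 of 15 did, led by Fzd1 (38.4), Lgr4 (18.2), Fzd2 (17.2) and Fzd7 (16.6 FPKM), with both co-receptors, Lrp6 (14.4) and Lrp5 (12.6 FPKM). Notch2 at 15.9 FPKM was the highest of the 4 Notch receptors, and Notch4 at 0.399 FPKM did not reach the level.

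Nell2 and the receptors of the Nell and Slit families were low. Nell2, a secreted glycoprotein, was at 0.640 and its paralogue Nell1 at 0.141 FPKM, both below 1 FPKM. Of the receptors, Robo1 was at 4.51, Robo2 at 1.65 and Robo3 at 1.13 FPKM. Robo4 was at 0.00736 FPKM and Ros1 was listed at 0. Slit3 and Slit2, other ligands of the Robo family, were higher than Nell2 at 18.1 and 9.88 FPKM, and Slit1 was at 0.355 FPKM. From the median transcript length, the Nell2 value stands for about 46 fragments, that of Robo2 for about 144 and that of Robo3 for about 123.

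Cytokine receptors were broadly represented, with 23 of 29 at 1 FPKM or more. The Tweak receptor Tnfrsf12a was highest at 179 FPKM, and the shared signal chain of the interleukin 6 family, Il6st, was at 34.2 with Osmr at 25.9 and Lifr at 1.26 FPKM. Both chains of the type I interferon receptor were present, Ifnar1 at 18.2 and Ifnar2 at 12.1 FPKM. Of receptors known from blood cells, Csf2ra was at 3.58, Il2rg at 1.80, Epor at 0.517 and Il7r at 0.0271 FPKM, and Csf3r was listed at 0. Of 48 nuclear receptors, 22 reached 1 FPKM (45.8%, near the share of all protein-coding genes). They were led by the retinoic acid receptor Rarg (39.9), the glucocorticoid receptor Nr3c1 (23.8), the clock receptor Nr1d1 (23), Nr4a1 (21.9) and Rxra (21.7 FPKM). The vitamin D receptor Vdr was at 11.7 FPKM. Sex steroid receptors were below the level, with Esr1 at 0.0513 FPKM and Pgr listed at 0. Among receptors for hormones and lipid mediators the lysophosphatidic acid receptor Lpar1 (31.6) and the thrombin receptor F2r (31 FPKM) were highest.

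In the Wnt and the TGF-β and BMP families a larger share of receptors than of ligands reached the level. Of 22 FGF genes, 4 reached 1 FPKM, and Fgf7, a stromal ligand for epithelial Fgfr2, stood alone at 68.1 FPKM with Fgf21 next at 2.40 FPKM. Of 19 Wnt genes 6 did, led by Wnt5a (11.7), Wnt9a (6.47) and Wnt11 (2.94 FPKM), and Wnt1 was at 0.0183 FPKM with Wnt3a listed at 0. In the list of Wnt antagonists, which also holds the R-spondins, agonists of the pathway, Dkk3 was at 108, Sfrp1 at 10.1 and Dkk1 at 0.0179 FPKM. Of 34 ligands in the TGF-β and BMP list, which also holds the protease Bmp1, 15 reached the level, with the activin subunit Inhba at 88.7, Tgfb3 at 60.9, Inhbb at 45.9, Tgfb2 at 20.6, Tgfb1 at 18.1, Bmp7 at 11.6 and Bmp4 at 8.60 FPKM. Bmp2 was next to the level at 1.01 FPKM. Several antagonists were above every BMP ligand, among them Fstl1 at 361, Grem1 at 115, Nbl1 at 71.7 and Twsg1 at 71 FPKM, while Nog (noggin) and Chrd (chordin) were at 1.19 and 1.20 FPKM.

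**Figure D4:**
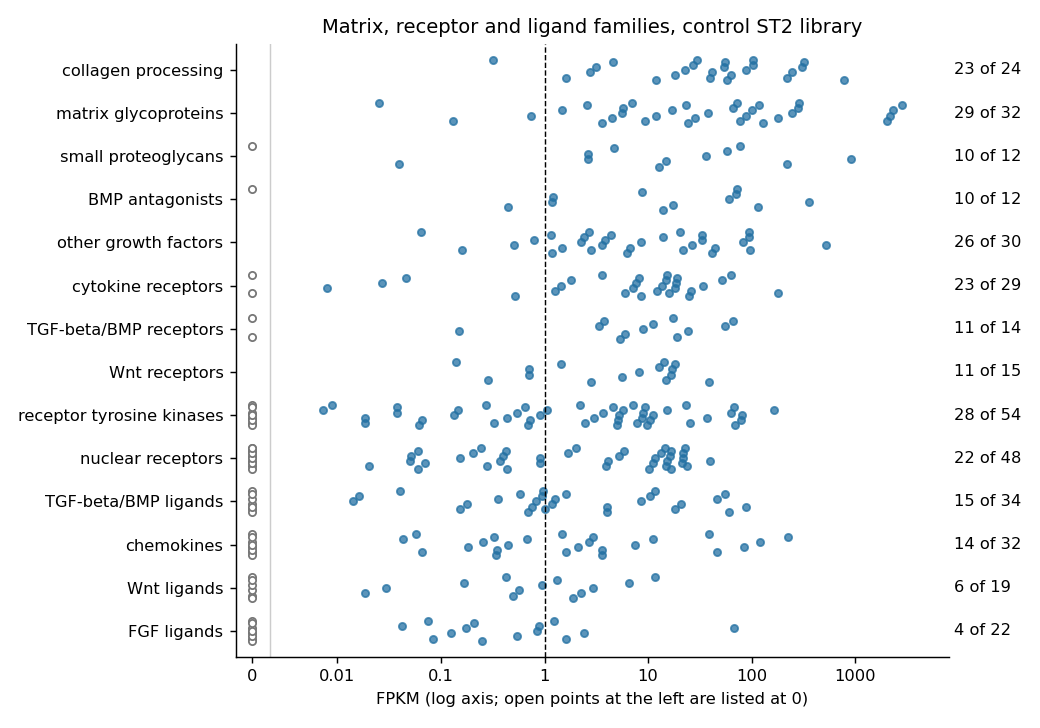
FPKM of each gene of 14 matrix, receptor and ligand families in the control library on a log axis, 1 point per gene, with the number at 1 FPKM or more (dashed line) at the right. Collagen processing genes (23 of 24) and matrix glycoproteins (29 of 32) lie mostly right of the line, and FGF (4 of 22) and Wnt ligands (6 of 19) mostly left of it.

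Of 9 insulin-like growth factors and binding proteins, 8 reached the level, with Igfbp2 at 288, Igfbp7 at 179, Igf2 at 114 and Igf1 at 7.78 FPKM and Igfbp1 listed at 0. Other growth factors were led by Ccn2 (connective tissue growth factor) at 527 FPKM, and others of high level were Ccn5 at 95, Angptl2 at 93.3 and pleiotrophin, Ptn, at 83.1 FPKM. The vascular factor Vegfa was at 32.9 and the platelet-derived factors Pdgfc, Pdgfa and Pdgfb at 41.5, 14 and 0.160 FPKM. Factors for osteoclast formation were read as a set, with Csf1 at 161, the ligand Tnfsf11 (RANKL) at 4.66 and its decoy receptor Tnfrsf11b (osteoprotegerin) at 79.4 FPKM, so that the decoy was 17 times the ligand. Of 32 chemokines, 14 reached 1 FPKM (43.8%, against 51.4% of all protein-coding genes). The monocyte attractants Ccl2 and Ccl7 were at 222 and 84.2, Ccl5 at 119 and Cxcl10 at 46.7 FPKM, all above Cxcl12. The inflammatory cytokines Il1b and Csf3 were listed at 0, and Il6, Tnf and Ifnb1 were at 3.24, 0.186 and 0.0581 FPKM.

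Transcription factors of position were sparse. Of 39 Hox genes, which give cells of trunk and limb their place along the body axis, 4 reached 1 FPKM (10.3%), 18 were above 0 and below it, and 17 were listed at 0. Those 4 were Hoxb2 (1.67), Hoxd8 (1.42), Hoxb3 (1.19) and Hoxa2 (1.01 FPKM). All 39 together summed to 9.93 FPKM, less than Runx2 alone. In groups 10 to 13, the posterior end of the clusters, 9 of 12 genes were listed at 0 and the highest was Hoxc13 at 0.207 FPKM.

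**Figure D5:**
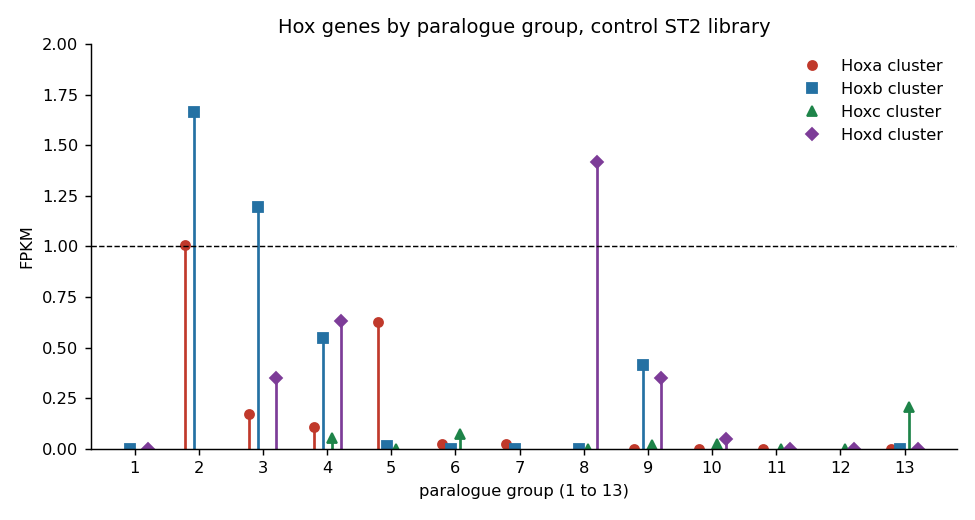
FPKM of the Hox genes of the 4 clusters, except 1 of the 39 that is not reported here, by paralogue group in the control library, 1 point per gene, with the level of 1 FPKM dashed. Hoxb2 is highest at 1.67 FPKM, Hoxd8, Hoxb3 and Hoxa2 follow, and no gene of groups 10 to 13 exceeds 0.207 FPKM.

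Of 56 other transcription factors of mesenchyme, 40 reached 1 FPKM and 22 reached 10 FPKM, with a median of 5.185 FPKM. The 4 listed at 0 were Tbx5, Pitx1, Tcf21 and Barx2. The paired-type factors Prrx1 and Prrx2 were at 94 and 90.2, Nfix at 89.4 and Twist1 at 44.6 FPKM. Factors known from head and limb mesenchyme were among the detected members, Alx4 at 27.1, Six2 at 23.5, Tbx15 at 19, Foxd1 at 14.1 and Lmx1b at 7.79 FPKM. The limb factor Tbx4 was at 0.196 FPKM, and Tbx2 stood just under the level at 0.996 FPKM.

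All 16 genes of a cell cycle list, which holds both proliferation genes and inhibitors of the cycle, reached 1 FPKM, from Aurkb at 10.9 to Cdkn1a at 372 FPKM. The replication clamp Pcna was at 90.7, the ribonucleotide reductase subunit Rrm2 at 78, Top2a at 51.2, Ccnb1 at 27.2 and Mki67 at 15.8 FPKM. Cdkn1a, the p21 inhibitor of cyclin-dependent kinases, was higher than each of the proliferation genes, and Trp53, which can induce it, was at 70.3 FPKM. The inhibitors Cdkn2b and Cdkn2a were at 38.4 and 16.8 FPKM. The 12 common reference genes ran from Tbp at 7.45 to Eef1a1 at 2933 FPKM, with Gapdh at 491 and Actb at 861 FPKM. Fn1, Sparc, Thbs1 and Spp1 were above Actb and below Eef1a1.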

How the data were processed

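The values were FPKM (fragments scaled to transcript length and library size) per gene, computed and deposited by the authors from polyadenylated RNA sequenced as 150 bp paired ends. The submitters' processing notes name HISAT2, DESeq and GRCm38. The program behind FPKM, all versions, the annotation and the strand setting are not given in the sources used here. Only the column of the control library was read. Rows whose name recurs (187) were left out, and 91.9% of names matched GENCODE M21, from which gene types and coordinates come. Depth was estimated as the inverse of the most frequent small value of FPKM times length. Genes with a single transcript of at least 600 bases were used. The step was tested on simulated data that used the same lengths it was given. It was therefore not tested on the unknown gene model behind the deposited FPKM. Of 2572 low values, 37.3% lay within 0.1 of a whole fragment number, and the fragment numbers given are therefore estimates.

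The members and the 50 gene lists were chosen with earlier results of these data known. Genes named were the 4 markers, the 30 highest, the 5 highest and first 3 members of each list and members next to 1 FPKM; the others were named after their values were seen. Older symbols were matched through RefSeq synonyms, Itgam was left out as a recurring name, and Ccn1, not matched in this way, is listed as Cyr61. Some members of the lists are not reported here. With 1 library there was no test. Summaries were made with pandas 2.3.3 in Python 3.11.15. Alternatives were other levels, summed rows, protein-coding genes only, and leaving out mitochondrial or overlapping genes.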

Additional observations from a re-analysis of the deposited data

How the results depend on the processing

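With 1 library, no alternative that leaves out a replicate was run, and values have no error. FPKM levels depend on a gene model and on a division of shared reads that are not given in the sources used here.

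The number of uniquely named genes at the level stayed within 1.5 times the main count of 12280 under every alternative run, from 8535 at 5 FPKM to 14078 at 1 unit of the TPM scale (FPKM rescaled to a fixed sum). The place of Fn1 was 5 among protein-coding genes, 3 without mitochondrially encoded genes and, in an alternative added after seeing the data, 5 without the chromosome 1 copies of mitochondrial sequence and the miRNA rows inside exons. Without mitochondrially encoded genes the 10 highest genes held 6.48% of the summed FPKM, ribosomal protein genes 10.8%, collagen genes 1.23% and matrix glycoprotein and proteoglycan genes 3.41%. Among protein-coding genes the last 3 classes held 10.9%, 1.24% and 3.44%. Summing rows of one name moved no share by 5% of its value. The share of promoter windows with a CArG box rose from 1.63% to 9.98% when 1 inner C or G was allowed, by its own construction. The count of list members at the level, 494 of 856 distinct genes, ran from 349 at 5 FPKM to 565 at 1 unit of the TPM scale. Of the 50 lists, the count of members at the level stayed within 1.5 times the main count in 45 at 0.5 FPKM, in 43 at 1 unit of the TPM scale, in 26 at 5 FPKM and in 47 without members that overlap another gene on the same strand. At 5 FPKM the count fell in receptor and ligand lists from 10 to 4 (integrin α), 4 to 2 (integrin β), 3 to 1 (Notch), 3 to 0 (Robo and Ros1), 17 to 7 (hormone and lipid mediator receptors), 6 to 2 (Wnt ligands), 8 to 2 (Wnt antagonists and R-spondins), 15 to 9 (TGF-β and BMP ligands), 26 to 16 (other growth factors), 13 to 5 (blood cell cytokines) and 14 to 7 (chemokines), and for FGF ligands from 4 to 1. It fell from 4 to 2 in the osteoclast list, from 4 to 1 in the blood cell list and from 1 to 0 in the skeletal muscle, endothelial and epithelial lists, and no Hox gene reached 5 FPKM. At 0.5 FPKM the blood cell count was 8, the endothelial 5, the FGF ligand 7 and the osteoclast 6. The Hoxa count rose there from 1 to 3 and the Hoxd count from 1 to 2. At 1 unit of the TPM scale the Wnt ligand count was 10, and the Hoxb count rose from 2 to 4. Without overlapping members the endothelial and Hoxa counts fell from 1 to 0, and that of mitochondrial mRNAs from 13 to 6.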

Other observations

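Genes induced by interferon were high in this library, whose cells had been given plasmid and siRNA. A list of 36 such genes, written after some of them had been seen among the highest genes, had all 36 at 1 FPKM or more and 11 at 100 FPKM or more, with a median of 50.6 FPKM and 1.06% of the summed FPKM. The membrane protein Ifitm3 was at 818 FPKM, the ubiquitin-like Isg15 at 659.7 FPKM and the tetherin gene Bst2 at 499.6 FPKM. Ifit1, which binds foreign RNA, and its partner Ifit3 were at 200.4 and 413 FPKM. The signal factors Irf7, Stat2 and Irf9 were at 101, 68.4 and 34.3 FPKM, and the RNA sensors Ddx58 and Ifih1 at 88.2 and 36.8 FPKM. Lowest were Oas3 at 2.34, Mx1 at 2.40 and Ifitm1 at 2.42 FPKM. Ifnb1, the interferon β gene itself, was at 0.0581 FPKM. The library holds no untransfected counterpart, so the part of transfection in these levels was not tested.

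Among long non-coding RNAs, named after their values were seen, the imprinted transcripts Rian and Meg3 of one chromosome 12 cluster were at 100.1 and 56.1 FPKM, the snoRNA host Gas5 at 84.5 FPKM and Tug1 at 31.3 FPKM. The matricellular gene Cyr61 (Ccn1), also named after its value was seen, was at 383 FPKM.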
